A study of Mus musculus with 8 samples.

Results

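The fibril-forming collagen chains are the subunits of the banded collagen fibrils, and 10 of them were followed here: Col1a1, Col1a2, Col2a1, Col3a1, Col5a1, Col5a2, Col5a3, Col11a1, Col11a2 and Col27a1. They were taken by gene symbol, all 10 were found among the 23100 genes of the count table, and 8 had enough counts to be tested. Min6 cells are an insulin-producing beta cell line derived from a mouse insulinoma. The cells carried either pRK5-Zac1, a plasmid that expresses the zinc finger transcription factor Zac1 (the product of Plagl1), or pRK5-NLSeGFP, a control plasmid for a nuclear green fluorescent protein. Both groups were transfected with Lipofectamine, RNA was taken 16 h later, and 4 libraries were sequenced per group, numbered 1, 2, 3 and 5 in each. No label gives the share of cells that took up the plasmid.

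A fibrillar collagen is made as a trimer of procollagen chains, which are hydroxylated and folded in the endoplasmic reticulum, trimmed by propeptidases outside the cell and then cross-linked into fibrils. Collagen I pairs the products of Col1a1 and Col1a2. Collagen V is built on the Col5a1 chain, as a homotrimer or with the Col5a2 and Col5a3 chains, and collagen XI joins the Col11a1 and Col11a2 chains with the product of Col2a1, the chain of cartilage collagen II. Collagens V and XI are the minor partners that start fibrils and limit their width. Col3a1 and Col27a1 encode homotrimers, the first of skin and vessel wall and the second first described in cartilage. In the pancreas, stroma rather than beta cells is known as the main source of fibrillar collagen.

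Sequence upstream of the chains is shown first as description, and its part in the values below was not tested. The RefSeq promoter windows on GRCm38.p6 run from 250 bases before a gene's start to 50 after it, and 7 of the 10 chains had one. Col1a1, Col2a1 and Col5a2 had no window in the set used, so no matches can be given for them. The windows of Col1a2, Col3a1 and Col27a1 are described below but not printed. The windows of a pair of collagen V chains and of a pair of collagen XI chains read as follows, 5′ to 3′ on the gene's strand, with each GGGGCC or its reverse complement GGCCCC in capitals.
Col5a1, chr2:27886175-27886474, plus strand: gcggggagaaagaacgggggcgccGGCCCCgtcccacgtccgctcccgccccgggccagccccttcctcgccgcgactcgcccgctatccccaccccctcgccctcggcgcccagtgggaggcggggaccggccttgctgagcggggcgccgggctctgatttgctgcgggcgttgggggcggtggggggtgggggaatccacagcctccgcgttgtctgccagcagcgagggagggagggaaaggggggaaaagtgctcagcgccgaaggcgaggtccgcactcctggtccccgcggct
Col5a3, chr9:20815018-20815317, minus strand: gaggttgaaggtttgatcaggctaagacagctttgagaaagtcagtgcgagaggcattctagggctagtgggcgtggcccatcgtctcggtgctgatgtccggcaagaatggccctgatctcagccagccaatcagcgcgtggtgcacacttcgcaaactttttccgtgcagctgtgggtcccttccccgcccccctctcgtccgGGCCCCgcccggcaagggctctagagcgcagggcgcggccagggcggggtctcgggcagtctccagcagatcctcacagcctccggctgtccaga
Col11a1, chr3:114030290-114030589, plus strand: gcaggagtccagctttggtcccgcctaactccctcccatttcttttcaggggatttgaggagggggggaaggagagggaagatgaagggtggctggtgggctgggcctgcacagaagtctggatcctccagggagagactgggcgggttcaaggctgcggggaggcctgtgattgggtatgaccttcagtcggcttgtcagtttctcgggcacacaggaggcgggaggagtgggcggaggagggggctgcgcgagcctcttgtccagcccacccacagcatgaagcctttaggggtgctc
Col11a2, chr17:34038888-34039187, plus strand: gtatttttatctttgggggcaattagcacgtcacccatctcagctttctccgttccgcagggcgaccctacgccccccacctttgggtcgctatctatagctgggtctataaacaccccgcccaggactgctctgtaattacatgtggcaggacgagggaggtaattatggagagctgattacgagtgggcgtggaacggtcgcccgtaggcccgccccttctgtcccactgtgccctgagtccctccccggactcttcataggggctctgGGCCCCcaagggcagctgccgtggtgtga
GGGGCCCC, a GC-rich palindrome reported as a Zac1 binding element, was present in none of the 7 windows, and in 1.08% of the 32851 mouse windows of the same length. The shorter GGGGCC, on either strand, can form part of that palindrome and was present in 25.0% of all windows. Among the chains it occurred once each in the windows of Col5a1, Col5a3, Col11a2 and Col1a2, and not in those of Col11a1, Col27a1 and Col3a1. The window of Col5a1 was 75.0% G and C, against a median of 52.7% over all windows. Those of Col5a3, Col11a1, Col11a2, Col1a2 and Col27a1 lay between 59.0% and 63.3%, and that of Col3a1 was at 37.7%. These matches describe letters only.

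Library totals were 34.7 to 42.4 M (mega) counts with Zac1 and 30.5 to 35 M in the controls. Plagl1 itself stood at 4119 to 5788 CPM (counts per M of the TMM-scaled library total) in the Zac1 libraries, against 67.7 to 85.4 CPM in the controls, so each library matched its label. All pairs of libraries from one group were further apart than counting noise, with chi-square values per degree of freedom of 14.7 to 28.2 for pairs with a library numbered 5 and 8.42 to 11.6 for the others. The design text calls the replicates biological without saying what was repeated, so p-values measure the spread between these libraries. Beta cell markers summed to 61140 to 68360 CPM with Zac1 and 58730 to 75060 CPM in the controls, and 0 of 13 passed the test (edgeR, with 0 at an unadjusted p under 0.05 and 0 in DESeq2 and limma-voom). Of 13 fibroblast and stellate cell markers 4 were tested and 1 rose. Thy1 (26 to 44 counts in the Zac1 libraries, against 29 to 42 in the controls), Tagln (24 to 34, against 19 to 39) and S100a4 (47 to 67, against 39 to 51) overlapped between the groups. Lum was at 0 in every library and Dcn had at most 5 counts in any. Pdgfra had 4 counts in each Zac1 library, against 1 to 3 in the controls, and Pdgfrb 14 counts in all Zac1 libraries together, against 2 in all controls, too few to be tested. The summed fibroblast list stood at 4.31 to 5.33 CPM in the Zac1 libraries, against 3.36 to 3.95 CPM in the controls. The difference lay mainly in desmin (Des), an intermediate filament protein with 254 counts in all Zac1 libraries together, against 6 in all controls, a ratio of 34.7 with a 95% exact binomial interval of 15.7 to 95.4 for counting error only (edgeR adjusted p = 1.66e-05). Testing required about 0.287 CPM in 4 libraries, a level that 0 controls reached for Des. Des was thus tested through the Zac1 libraries, and the count of 1 is not read against the 2.15% of all tested genes called higher. Without Des the sum was 3.01 to 3.69 CPM with Zac1 and 3.31 to 3.84 CPM in the controls. Chondrocyte markers summed to 15.8 to 24.5 CPM with Zac1 and 16.7 to 23.5 CPM in the controls, nearly all of it Hapln1. Without Hapln1 the other 7 summed to 0.653 to 1.16 CPM in the Zac1 libraries, against 0.295 to 0.644 CPM in the controls, without overlap. All 7 were too low to be tested. Acan had 44 counts in all Zac1 libraries together, against 9 in all controls, and Comp 42 against 18. Lect1 had 26 against 5 and Matn1 25 against 5, while Col10a1 had 11 against 8, Matn3 15 against 16 and Sox9 3 against 4. Endothelial markers summed to 1.29 to 2.11 CPM with Zac1, against 1.65 to 2.06 CPM in the controls, and macrophage and leukocyte markers to 5.42 to 7.85 CPM with Zac1, against 6.20 to 7.08 CPM in the controls. In such bulk RNA a change in the share of cells that carry a transcript and a change in its amount per cell cannot be told apart.

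Col27a1, Col11a1 and Col11a2 made up nearly all of the mRNA of the 10 chains in both groups, and the chains that rose with Zac1 were low in the controls. Per length, as CPM per kb of the longest coding transcript, Col27a1 had a level of 23.0 ± 3.46 with Zac1 and 22.1 ± 2.13 in the controls (SD, n = 4 each). Col11a1 followed at 4.68 ± 0.189 CPM per kb with Zac1 and 4.90 ± 0.267 in the controls. Col11a2 came next at 1.36 ± 0.410 CPM per kb in the Zac1 libraries, against 0.727 ± 0.112 in the controls. As a share of the per-length sum of all 10 chains, Col27a1 held 75.5% ± 1.91 with Zac1 and 78.6% ± 2.16 in the controls. The Col27a1 share ran from 74.0% to 78.2% with Zac1 and from 75.5% to 80.5% without, so the groups overlapped.

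**Figure D1:**
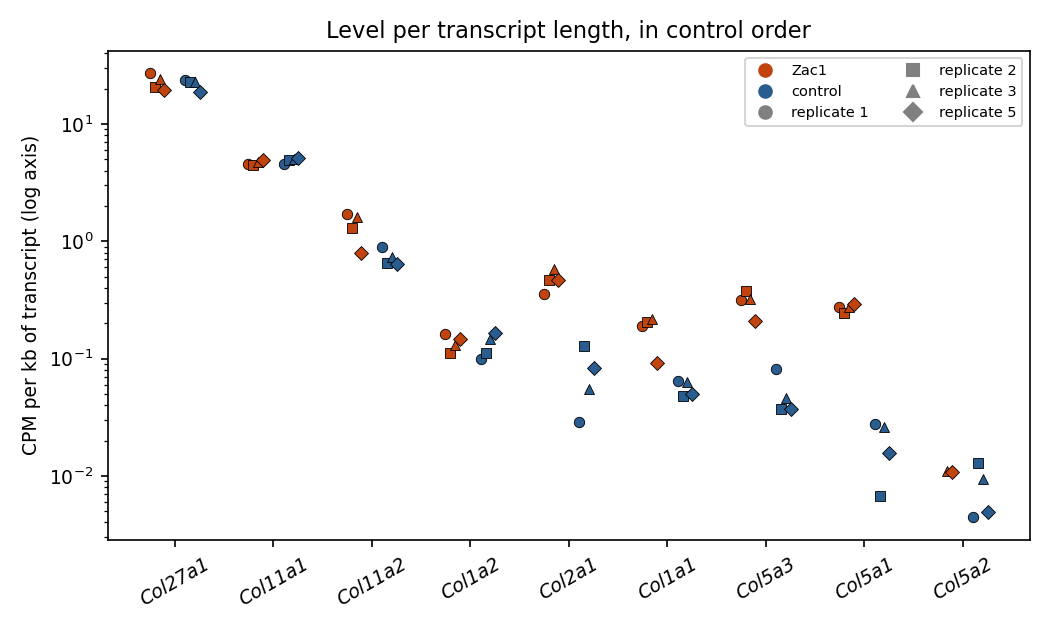
Level of each chain in CPM per kb of its longest coding transcript (log axis) in each of the 4 Zac1 and 4 control libraries, with marker shapes for replicate numbers and chains in the order of the control means. Col27a1 lies highest near 22 CPM per kb and Col5a2 lowest; libraries with 0 counts cannot be drawn, and Col3a1, with at most 2 counts in a library, is left out.

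Below these, the order differed between the groups. In the Zac1 libraries it ran Col2a1 (0.466 CPM per kb), Col5a3 (0.305), Col5a1 (0.270), Col1a1 (0.176) and Col1a2 (0.137). In the control libraries it ran Col1a2 (0.131 CPM per kb), Col2a1 (0.0739), Col1a1 (0.0563), Col5a3 (0.0505) and Col5a1 (0.0191). Neighbours in the Zac1 order overlapped from library to library, except that Col5a1 (0.243 to 0.290 CPM per kb) lay above Col1a1 (0.0917 to 0.215) and Col11a2 above Col2a1. In the control order Col1a2, Col2a1, Col1a1 and Col5a3 each overlapped with the one before or after it, while Col5a3 (0.0372 to 0.0813 CPM per kb) lay above Col5a1 (0.00676 to 0.0279). With coding length in place of transcript length, Col5a1 came before Col5a3 in the Zac1 order, and the control order was as given.

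Across the 14331 tested genes, 2.15% were called higher with Zac1 (edgeR quasi-likelihood test, Benjamini-Hochberg adjusted p below 0.05) and 0.0349% lower. Of the 10 chains, 4 rose, namely Col5a1, Col2a1, Col5a3 and Col1a1, and 0 fell (edgeR, with 0 lower at an unadjusted p under 0.05 and 0 lower in DESeq2 and limma-voom). Of the other 6, Col11a2, Col1a2, Col11a1 and Col27a1 did not pass the test, and Col3a1 and Col5a2 could not be tested. The groups did not overlap for Col5a1, Col2a1, Col5a3 and Col1a1, with Zac1 higher, as in 4.39% of all tested genes. These chains were low in the controls, and testing required about 0.287 CPM in 4 libraries. In the controls that level was reached by 3 libraries for Col1a1, 2 for Col2a1, 1 for Col5a3 and 0 for Col5a1, so these chains passed the filter through the Zac1 libraries, and nothing is read from their number. Col24a1, a fibrillar chain outside the 10 and looked up after the other values were seen, had 9.34 ± 1.30 CPM with Zac1 and 9.39 ± 0.833 CPM in the controls (SD, n = 4 each; edgeR log2 fold change -0.01 ± 0.11, SE).

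**Figure D2:**
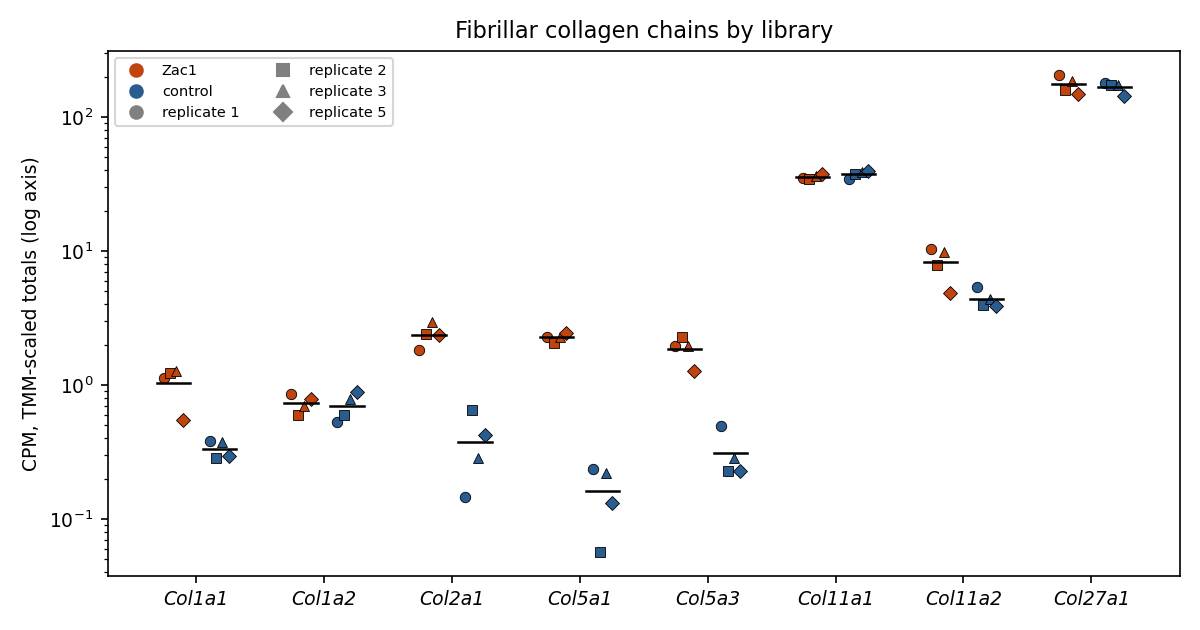
CPM of the 8 tested chains (log axis) in each Zac1 and control library, with the group mean as a bar. Col1a1, Col2a1, Col5a1 and Col5a3 do not overlap between the groups, while Col1a2, Col11a1, Col11a2 and Col27a1 do, and Zac1 replicate 5 is the lowest Zac1 library for Col1a1, Col5a3, Col11a2 and Col27a1.

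Among the tested chains the largest change was in collagen V. Col5a1, the chain that every collagen V molecule needs, had 96, 72, 95 and 103 counts in Zac1 libraries 1, 2, 3 and 5, against 8, 2, 7 and 4 in the controls of the same numbers. Every Zac1 library lay at 2.04 CPM or more and no control above 0.234 CPM. The level averaged 2.27 ± 0.164 CPM with Zac1 and 0.160 ± 0.0828 CPM without (SD, n = 4 each), a 13.95-fold increase (log2 3.80 ± 0.27, SE; edgeR adjusted p = 1.3e-06). With 21 counts in all control libraries together, the ratio of summed counts was 14.3 with a 95% exact binomial interval of 9.20 to 23.3, which covers counting error only. In GENCODE, exons of 2810430I11Rik and Gm13372 overlap 99 and 113 bases of Col5a1 exons on the opposite strand. The libraries were made with a stranded kit, but no label gives the strand setting of the counting, so a share of the Col5a1 reads is uncertain. Col5a3, the alpha-3 chain of the rarer mixed trimer, had 81, 81, 81 and 54 counts in the Zac1 libraries, against 17, 8, 9 and 7 in the controls. Its groups did not overlap either, and replicate 5 was the lowest Zac1 library. The mean was 1.87 ± 0.427 CPM with Zac1 and 0.309 ± 0.128 CPM without (SD, n = 4 each), 5.93-fold higher (log2 2.57 ± 0.28, SE; edgeR adjusted p = 7.33e-05). Col5a2, the alpha-2 chain of the common collagen V heterotrimer, was at or near the floor in both groups, with 0, 0, 3 and 3 counts with Zac1 and 1, 3, 2 and 1 in the controls. At most 3 counts in a library is the floor of detection used here, so no fold is given, and no difference was detectable at this depth.

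The cartilage chains were split between a low and a high partner. Col2a1 had 76, 84, 122 and 100 counts in the Zac1 libraries, against 5, 23, 9 and 13 in the controls. The lowest Zac1 library, at 1.82 CPM, was above the highest control, at 0.654 CPM. Its level was 2.38 ± 0.459 CPM with Zac1 and 0.377 ± 0.217 CPM without (SD, n = 4 each), a 6.22-fold increase (log2 2.64 ± 0.30, SE; edgeR adjusted p = 0.000105). The summed chondrocyte markers other than Hapln1, given above, were also higher in every Zac1 library than in any control. The gap was narrow, from 0.644 CPM in the highest control to 0.653 CPM in the lowest Zac1 library. Matn3 and Sox9 among these markers had fewer counts with Zac1. Hapln1, the single chondrocyte marker tested, had a log2 change of -0.002 ± 0.14 (SE; edgeR adjusted p = 0.999). The part of these markers in the Col2a1 result was not tested. Col11a1, its partner in collagen XI, was measured at a much higher level. It stood at 35.1, 34.3, 36.5 and 37.5 CPM in the Zac1 libraries, against 34.7, 37.5, 38.9 and 39.3 CPM in the controls. The groups overlapped, and the log2 fold change was -0.07 ± 0.06 (SE; edgeR adjusted p = 0.932). Col11a2, the alpha-2 chain of collagen XI, stood at 10.4, 7.89, 9.79 and 4.85 CPM in the Zac1 libraries, against 5.35, 3.95, 4.40 and 3.89 CPM in the controls. Zac1 replicate 5 fell inside the control range, and the other Zac1 libraries lay above it. The log2 fold change of 0.90 ± 0.22 (SE, 1.87-fold) did not pass over all 8 libraries (edgeR adjusted p = 0.073). It passed without Zac1 replicate 5 (log2 1.09, edgeR adjusted p = 8.7e-05), without both libraries numbered 5 (log2 1.04, edgeR adjusted p = 0.000137) and in DESeq2 (adjusted p = 0.000497). Col11a2 did not pass in limma-voom (adjusted p = 0.24) or without the low-count filter (edgeR adjusted p = 0.136). With a mean of at least 50 counts required it did not pass either (edgeR adjusted p = 0.152).

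The chains of collagen I also parted. Col1a1, the alpha-1 chain and the more abundant subunit of the protein, had 47, 43, 53 and 23 counts in the Zac1 libraries, against 13, 10, 12 and 9 in the controls. The groups did not overlap, but Zac1 replicate 5, at 0.544 CPM, was below the other Zac1 libraries (1.12 to 1.28 CPM). The mean was 1.04 ± 0.338 CPM with Zac1 and 0.334 ± 0.0517 CPM without (SD, n = 4 each), 3.08-fold higher (log2 1.62 ± 0.31, SE; edgeR adjusted p = 0.00766). Col1a2, the alpha-2 chain, had 36, 21, 29 and 33 counts in the Zac1 libraries, against 18, 21, 25 and 27 in the controls. Its groups overlapped over most of their range (0.596 to 0.861 CPM with Zac1 and 0.527 to 0.884 CPM without), with a log2 fold change of 0.09 ± 0.24 (SE; edgeR adjusted p = 0.983).

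Of Col27a1 and Col3a1 only the first was tested, and it did not pass. Col27a1 stood at 207, 158, 186 and 149.6 CPM in the Zac1 libraries, against 180, 173, 175 and 144 CPM in the controls. The library numbered 5 was the lowest of each group, and the log2 fold change was 0.06 ± 0.10 (SE; edgeR adjusted p = 0.969). Col3a1 had 0 counts in each Zac1 library and 0, 0, 1 and 2 in the controls, which is at the floor in both groups, so no fold is given. The floor of 3 counts in a library corresponds to 0.0710 to 0.0851 CPM with Zac1 and 0.0853 to 0.0982 CPM in the controls.

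**Figure D3:**
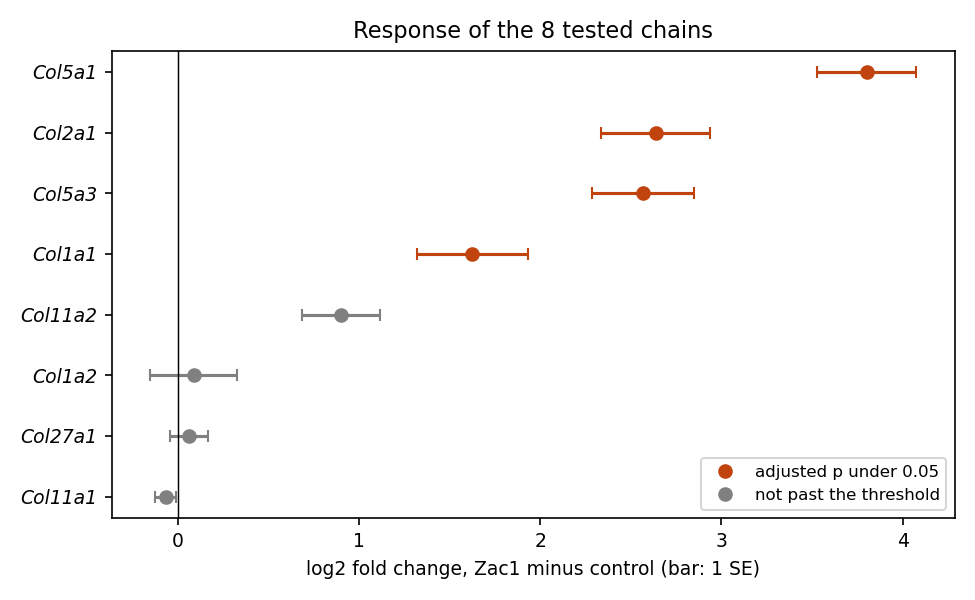
Log2 fold change (Zac1 minus control, edgeR) of the 8 tested chains with bars of 1 SE, n = 4 libraries per group. Col5a1, Col2a1, Col5a3 and Col1a1 lie at log2 3.80, 2.64, 2.57 and 1.62, Col11a2 at 0.90 short of the threshold, and Col1a2, Col27a1 and Col11a1 within 0.1 of 0.

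Whether chains of one trimer responded unequally was tested as the within-library log2 ratio of their CPM, in the 5 pairs with both chains tested. Each ratio was compared between the groups by a two-sided exact permutation test over the 70 assignments of libraries, whose smallest p is 0.0286, with Benjamini-Hochberg adjustment over the 5 pairs. In every pair but Col11a1 with Col11a2, a chain had passed the filter through the Zac1 libraries, as given above. The p-values of such pairs carry that choice, and nothing is read from how many passed. The collagen XI ratios share chains, so each follows from the others. The adjusted value of the smallest p depends on how many pairs reach it. With 1 library left out 35 assignments remain, and the smallest exact p is again 0.0286. Groups that did not overlap over all 8 libraries still do not overlap then. For such a pair an exact p of 0.0571 with 1 library left out marks no lost separation. The log2 ratio of Col2a1 to Col11a1 was -4.23, -3.82, -3.61 and -3.96 with Zac1 and -7.44, -5.73, -6.85 and -6.36 in the controls. The Zac1 libraries lay higher without overlap, by 2.69 ± 0.39 on the log2 scale (SE; exact p = 0.0286, adjusted 0.0477). Per length, the median ratio of Col2a1 to Col11a1 was 0.0995 with Zac1 and 0.0136 without, so Col11a1 was the more abundant transcript in every library. The ratio of Col2a1 to Col11a2 was higher with Zac1 by 1.77 ± 0.57 on the log2 scale (SE), again without overlap (exact p = 0.0286, adjusted 0.0477). Leaving out any library but control replicates 2 or 5 gave an exact p of 0.0571, still without overlap, with a difference of 1.36 to 2.02. A prior count of 5 over all 8 libraries also gave an exact p of 0.0571 (difference 1.54). The gap between the groups was small, with Zac1 replicate 1 at a log2 ratio of -2.48 and control replicate 2 at -2.50, and with a prior count of 5 the groups overlapped.

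Within collagen V, the log2 ratio of Col5a1 to Col5a3 was 0.24, -0.17, 0.22 and 0.90 with Zac1 and -0.94, -1.34, -0.30 and -0.61 in the controls. The groups did not overlap, and Col5a1 gained on Col5a3 by 1.10 ± 0.31 on the log2 scale (SE; exact p = 0.0286, adjusted 0.0477). Without Zac1 replicates 1, 3 or 5 or control replicates 1 or 2 the exact p was 0.0571, with a difference of 0.90 to 1.12. The groups did not overlap in those settings either. Per length, the median ratio of Col5a1 to Col5a3 was 0.858 with Zac1 and 0.379 without.

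In collagen I the log2 ratio of Col1a1 to Col1a2 was 0.36, 0.97, 0.82 and -0.48 with Zac1 and -0.42, -0.94, -0.96 and -1.43 in the controls. Zac1 replicate 5 lay just below the highest control, and the difference of 1.36 ± 0.39 on the log2 scale (SE) did not pass (exact p = 0.0571, adjusted 0.0571). Without that library it was 1.66, and the groups did not overlap (exact p = 0.0286, the smallest that 35 assignments allow). Per length, the median ratio of Col1a1 to Col1a2 was 1.41 with Zac1 and 0.431 without. The log2 ratio of Col11a1 to Col11a2 differed by -0.91 ± 0.30 with Zac1 (SE), which did not pass either (exact p = 0.0571, adjusted 0.0571), and without Zac1 replicate 5 the difference was -1.17 (exact p = 0.0286). In both ratios Zac1 replicate 5 was the library nearest the controls.

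**Figure D4:**
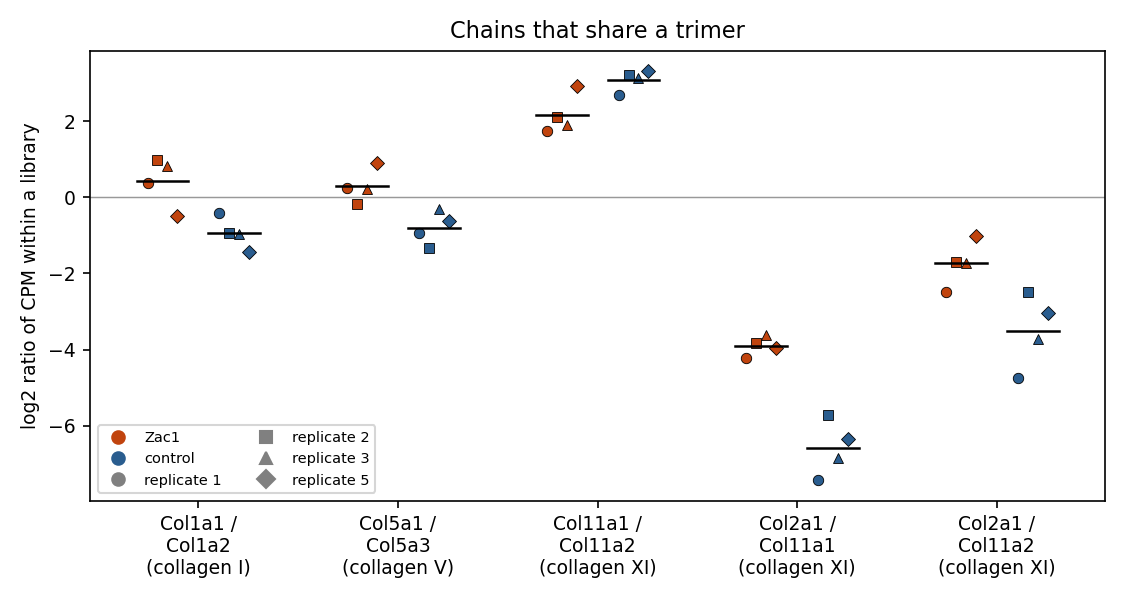
Log2 ratio of the CPM of 2 chains within each library for the 5 tested pairs of chains that share a trimer, in Zac1 and control libraries, with the group mean as a bar. The groups do not overlap for Col2a1 over Col11a1, Col2a1 over Col11a2 and Col5a1 over Col5a3, and Zac1 replicate 5 lies inside the control range for Col1a1 over Col1a2 and for Col11a1 over Col11a2.

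Of the genes that modify and fold procollagen 0 were called. Among the 15 prolyl and lysyl modifying genes 0 were called in edgeR, DESeq2 or limma-voom, 0 had an unadjusted p under 0.05, and the median log2 change was -0.02, against -0.01 over all tested genes. The closest to a change were Leprel4 (log2 -0.16 ± 0.09, SE) and the lysyl hydroxylases Plod3 (-0.11 ± 0.07) and Plod1 (-0.12 ± 0.08). Their edgeR adjusted p were 0.806, 0.839 and 0.861 in that order. Crtap, a subunit of the prolyl 3-hydroxylase complex, had a log2 change of 0.08 ± 0.11 (SE). Of 11 tested folding and export genes 0 were called in edgeR, DESeq2 or limma-voom. Creb3l1, a membrane-bound transcription factor known for driving collagen I genes in bone, was the single one with an unadjusted p under 0.05 (log2 0.51 ± 0.20, SE; edgeR adjusted p = 0.451), at 1.36 ± 0.0486 CPM with Zac1 and 0.951 ± 0.232 CPM without (SD, n = 4 each). Tmem131, which helps to export collagen, and Mia2 had log2 changes of 0.09 ± 0.05 and 0.05 ± 0.07 (SE), and Fkbp10, a prolyl isomerase of the endoplasmic reticulum, one of -0.49 ± 0.46 at 4 to 22 counts in the Zac1 libraries, against 5 to 21 in the controls. Serpinh1, the collagen chaperone HSP47, was too low to be tested, with 6, 3, 3 and 9 counts in the Zac1 libraries, against 2, 0, 2 and 2 in the controls, and its groups did not overlap.

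Outside the cell, 2 of 8 tested processing and cross-linking genes were called higher (2.15% of all tested genes were), with a list median of -0.01 on the log2 scale. Pcolce, which enhances removal of the procollagen C-propeptide, had 1.70, 1.76, 1.83 and 1.23 CPM in the Zac1 libraries, against 0.848, 0.426, 1.04 and 0.785 CPM in the controls. The groups did not overlap, and the rise was 2.11-fold (log2 1.08 ± 0.24, SE; edgeR adjusted p = 0.0289). Adamts3, a procollagen N-propeptidase, had 43, 26, 20 and 13 counts in the Zac1 libraries, against 3, 4, 4 and 10 in the controls. It rose 3.92-fold with an overlap at the libraries numbered 5 (log2 1.97 ± 0.48, SE; edgeR adjusted p = 0.0469). Of the controls 1 reached the level that testing required for Adamts3, so it was tested through the Zac1 libraries, and nothing is read from the count of 2. Pcolce lost its call without any of Zac1 replicates 1, 2 or 3 or control replicates 1, 2 or 5 (edgeR adjusted p = 0.0543 to 0.0986), and Adamts3 without any of Zac1 replicates 1, 2 or 3 or control replicates 1, 2 or 3 (0.0597 to 0.173) and in limma-voom (0.0664). The propeptidases Tll1 and Adamts2 had log2 changes of 0.09 ± 0.18 and -0.09 ± 0.19 (SE). The list held 15 genes, and those left untested were too low. In all Zac1 libraries together, against all controls, Loxl4 had 69 counts against 18, Loxl1 15 against 3 and Lox 13 against 2. Adamts14 had 20 against 14, while Tll2 (23 against 24), Mep1b (3 against 9) and Mep1a (0 against 2) had fewer with Zac1.

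Proteins that sit on fibrils were measured mostly at low levels. Among the fibril-associated collagens, 1 of 7 tested genes was called higher, with a list median of 0.36. This was Col9a2, a chain of collagen IX, which coats fibrils of collagens II and XI, at 140, 102, 125 and 98 counts in the Zac1 libraries against 3, 2, 2 and 2 in the controls (edgeR adjusted p = 3.94e-08). The ratio of summed counts was 42.3, with a 95% exact binomial interval of 22.1 to 93.1 for counting error only. In 0 controls did Col9a2 reach the level that testing required, so its count is not read against the 2.15% of all tested genes. Its trimer partner Col9a3 had 2.02 ± 0.477 CPM with Zac1 and 1.09 ± 0.263 CPM without (SD, n = 4 each), without overlap, and did not pass (log2 0.88 ± 0.22, SE; edgeR adjusted p = 0.0591). It passed without Zac1 replicate 5 (0.0098), as Col11a2 did. Col22a1 and Col12a1 had log2 changes of 0.47 ± 0.19 and -0.49 ± 0.27 (SE; edgeR adjusted p = 0.481 and 0.771). Of fibril-binding proteoglycans and glycoproteins 1 of 4 tested genes was called higher. Tnxb, tenascin-X, which binds collagen fibrils, had 52, 61, 85 and 64 counts in the Zac1 libraries against 9, 8, 4 and 8 in the controls (log2 2.87 ± 0.28, SE; edgeR adjusted p = 2.02e-05). It too was tested through the Zac1 libraries, as 0 controls reached the required level. The count of 1 in 4 is therefore not read against the 2.15% either. Podn, the leucine-rich proteoglycan podocan, had a log2 change of 0.84 ± 0.23 (SE; edgeR adjusted p = 0.0995), fibronectin (Fn1) one of 0.02 ± 0.17 and thrombospondin-1 (Thbs1) one of -0.01 ± 0.21.

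Cell surface receptors and collagenases of fibrillar collagen showed 0 calls among 10 tested genes in edgeR, DESeq2 or limma-voom and 0 at an unadjusted p under 0.05, with a median log2 change of -0.03. The list held 16 genes, and those left untested were too low. Of these Itga11 had 49 counts in all Zac1 libraries together, against 15 in all controls, with overlap. Lair1 had 36 against 26, Gp6 0 against 2, Mmp8 0 against 1 and Mmp2 1 against 0, and Mmp1a was at 0 throughout. The collagen receptor Ddr1, at 114 ± 12.1 CPM with Zac1 and 107 ± 9.50 CPM without (SD, n = 4 each), had a log2 change of 0.09 ± 0.08 (SE). The integrin chain Itga2 had -0.49 ± 0.27, Itgb1 -0.04 ± 0.05 and the collagenase Mmp13 -0.54 ± 0.34. Of 24 listed transcription factors known to act on collagen genes, 16 had enough counts to be tested. Among these 0 were called in edgeR (DESeq2 called 1, limma-voom 0, and 1 had an unadjusted p under 0.05), with a median of 0.04. Smad3, which carries TGF-beta signals, had the smallest p, at 10.4 ± 1.11 CPM with Zac1 and 8.03 ± 0.790 CPM without (SD, n = 4 each; log2 0.38 ± 0.10, SE; edgeR adjusted p = 0.0815). It was called in DESeq2 (adjusted p = 0.0327) and without control replicate 1 (edgeR adjusted p = 0.0347). Nfya, a subunit of the CCAAT-binding factor, had a log2 change of 0.12 ± 0.06, Prrx1 of -0.39 ± 0.19 and Egr1 of 0.27 ± 0.13 (SE).

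The genes most like Col2a1, Col5a1 and Col5a3, the called chains with the most counts, were ranked by Pearson's correlation of log2 CPM over the 8 libraries, leaving out genes that averaged under 50 counts. Since the groups differ, this measure mainly ranks genes by how cleanly they separate the groups. Nearest to Col2a1 were the plexin Plxna1 (r = 0.986), X99384 (0.979) and Wfikkn2 (0.975), all called higher. Nearest to Col5a1 were the plexin Plxnd1 (0.984), Rimbp3 (0.980) and Gm16119 (0.980), of which Rimbp3 did not pass the test (edgeR adjusted p = 0.459). Nearest to Col5a3 were Gm16119 (0.995), the leukocyte integrin chain Itgal (0.992) and the growth factor Pgf (0.987), all called higher.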

How the data were processed

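The table deposited by the authors holds raw counts of reads for 23100 genes in 8 libraries of transfected Min6 cells. Per the submitters' processing notes, the tools were HTSeq 0.6.1p1, Bowtie2 2.2.8, TopHat2 2.1.1, FastQC and bcl2fastq 2.17, and the build was mm9. No label names the annotation, the strand setting or a filter. From these counts, edgeR 4.0.16 (R 4.3.3) was run on the 14331 genes kept by filterByExpr, with TMM scaling, a robust quasi-likelihood fit on group and Benjamini-Hochberg adjustment over all tested genes (threshold 0.05). SEs were derived from the F statistic. Ratios used log2 CPM with a prior count of 2. DESeq2 1.42.0 and limma 3.58.1 were alternatives. The edgeR step was checked on counts simulated for this comparison: among 14331 genes, 98.2% of 56 genes raised 2-fold and 100% of 47 raised 4-fold were recovered, with 6 false calls among 201, the changed genes having a mean of at least 20 counts. Transcript lengths came from GENCODE M21 (GRCm38), and promoter windows from RefSeq on GRCm38.p6.

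The chains, the lists and the pairs were chosen with earlier results of these data known. The genes named by rule are Plagl1, the 10 chains, from each further list all called genes (if no more than 10) together with the 4 tested genes of lowest p, and for 3 called chains the 3 most correlated genes. Beta cell, endothelial and macrophage markers are given by summed level only. Col24a1, Serpinh1, the untested processing and receptor genes and the untested markers of fibroblasts and chondrocytes were named after their values were seen. Counts of the plasmid and of the endogenous Plagl1 gene are not separated in these values.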

Additional observations from a re-analysis of the deposited data

Results flagged for a closer look

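Col1a1 in Zac1 replicate 5 stood apart from the other Zac1 libraries. It had 0.544 CPM there, against 1.12 to 1.28 CPM in Zac1 replicates 1, 2 and 3, and its gap to the nearest of them was 0.847 of the group's range on the log2 scale, above the 95% critical value of Dixon's test for 4 libraries. Chance alone marks about 1 in 20 groups, and 16 groups (8 chains in each of 2 conditions) were examined. The same library was the lowest Zac1 library for Col5a3, Col11a2 and Col27a1 but the highest for Col5a1 and Col11a1. Its Plagl1 level, 4370 CPM, lay within the range of the other Zac1 libraries (4119 to 5788 CPM).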

How the results depend on the processing

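Col5a1, Col2a1, Col5a3 and Col1a1 kept their calls in edgeR with RLE size factors or library totals only, in DESeq2, in limma-voom, without the low-count filter, and without any 1 library. With a mean of at least 50 counts required, 99 genes were called, all higher, and 1 chain, Col2a1, since the other called chains were not tested. In the lists the fit called 2 fibril-associated collagens with library totals only, DESeq2, no filter, or both libraries numbered 5 left out. It called 1 transcription factor of collagen genes (Smad3) with library totals only, DESeq2 and no filter, 2 fibril-binding genes with no filter, and 1 processing gene in limma-voom. Under the minimum of 50 counts 0 processing and 0 fibril-binding genes were called. Without 1 library the processing genes called were 0 to 2, fibril-binding genes 1 to 2, fibril-associated collagens 1 to 2 and transcription factors 0 to 1. The cause was not tested.

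The shared replicate numbers were examined on the 12219 genes that averaged 50 or more counts. Deviations of same-numbered libraries from their group means correlated at 0.48, 0.07, 0.32 and 0.53 for numbers 1, 2, 3 and 5. Each Zac1 library correlated best with the control of its own number, for Zac1 2 by little (0.0717, against 0.0651 with control 5). Control 2 correlated best with Zac1 3 (0.19). As the labels do not say what a number marks, the main fit did not take the numbers as pairs, and the block is an alternative. Fitting replicate as a block gave 628 calls (512 higher, 116 lower), against 313, including Col11a2 (edgeR adjusted p = 3.09e-06), 2 fibril-binding genes, 2 fibril-associated collagens and 1 transcription factor. For the ratios, the block leaves 16 sign flips, whose smallest exact p is 0.125, so it cannot pass. The differences there were 1.10 for Col5a1 and Col5a3, 2.69 for Col2a1 and Col11a1, and 1.77 for Col2a1 and Col11a2.

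The Col2a1 to Col11a2 difference was 1.54 with a prior count of 5 (exact p = 0.0571). Without 1 library the differences ran from 1.17 to 1.66 for Col1a1 and Col1a2, 0.90 to 1.26 for Col5a1 and Col5a3, -1.17 to -0.77 for Col11a1 and Col11a2, and 1.36 to 2.11 for Col2a1 and Col11a2. With coding length the control levels per kb were 30.3 (Col27a1), 6.94 (Col11a1), 0.845 (Col11a2), 0.170 (Col1a2), 0.0766 (Col1a1) and 0.0291 (Col5a1), as shorter lengths give higher values. Depth limits Col3a1, Col5a2 and the control levels of Col5a1, each with at most 8 counts in a control library.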
